A study of Mus musculus with 4 samples.

Results

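The cells named gdT_TypeIII_CD163l1 were 1 of 21 cell types that the authors distinguished among cells sorted from mouse liver and lung. The members described here were the 191 genes listed for that type in the deposited table of cell type markers. These genes were found by taking every row of the table whose cluster label was gdT_TypeIII_CD163l1. They made up 9.55% of the 2000 features that the table covered, and 11.4% of the 1679 genes that were listed for at least 1 type. The nearest relatives by name and program, gdT_TypeIII_ITGAE and the group 3 innate lymphoid cells (ILC3), had 197 and 153 listed genes, which is 9.85% and 7.65% of the features, and 11.7% and 9.11% of the genes listed for any type.

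Cells came from wild-type BALB/c mice, 8 weeks old, that were injected intraperitoneally each day for 5 days with PBS or with rIL-33, the recombinant cytokine, at 0.5 µg, and single-cell RNA was sequenced from 4 libraries, 1 each for PBS liver, PBS lung, rIL-33 liver and rIL-33 lung. Each library pooled tissue from several animals. The sort kept CD127+Thy1+ST2+ cells that were negative for a lineage panel which held antibodies to CD3e and TCRb as well as to myeloid, B cell and erythroid antigens, so surface CD3e-positive cells were meant to be left out and any T cell described here had passed that gate. The table merged all 4 libraries and gave no value for a library, so nothing could be compared between liver and lung or between PBS and rIL-33, there were no replicates, and the table gave neither depth nor numbers of cells.

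Gamma delta T cells carry a T cell receptor made of a gamma and a delta chain and respond rapidly at barrier and other tissues. Those that make IL-17 acquire this program in the thymus under transcription factors that include c-Maf and Sox13, and they share much of the associated receptor equipment with ILC3s, which lack an antigen receptor. *Cd163l1* encodes a scavenger receptor cysteine-rich protein (also called SCART1) known from IL-17-producing gamma delta T cells, *Areg* encodes the EGF receptor ligand amphiregulin, and *Jun* encodes a subunit of the AP-1 transcription factor.

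For each listed gene the table gave how many cells, as a share, had a value above 0, first inside the type and then among all other cells. A gene was listed when the authors' comparison placed its average higher inside the type, so listing is a property of the cells that were clustered and no test was run on it. Values in this table appeared to have been processed jointly over libraries, and a value above 0 could not be read as detection of a transcript. Of 116 genes listed for ILC2 that were also in a separate table of ILC2s alone, 112 had a higher share in the cell type table, with medians of 75.15% against 43.26%. Percentages below are cells above 0, differences between them are in percentage points, and neither is a level of expression.

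The values of *Cd163l1*, *Areg* and *Jun* come first. The authors named the types from cluster markers, so these values are no check of the label. *Cd163l1* (chromosome 7, 140218267 to 140231145, GRCm38) was above 0 in 96.3% of the cells of the type and in 48.3% of all other cells. Its difference of 48.0 points was the second largest of the 191. The only other type that listed it was gdT_TypeIII_ITGAE, where 51.5% of cells had a value above 0. *Areg* (chromosome 5, 91139599 to 91148432) was above 0 in 48.8% of the cells inside and 43.9% outside, a difference of 4.9 points that ranked 155 among the 191 genes. It was also listed for ILC2 at 45.2%, ILC2_2 at 62.7%, regulatory T cells at 45.5% and gdT_TypeII at 46.3%, and was listed neither for gdT_TypeIII_ITGAE nor for ILC3. *Jun* (chromosome 4, 95049034 to 95052222) was above 0 in 86.1% of the cells inside and 73.6% outside. It was listed for 5 other types, 4 of which had a higher share, up to 97.6% in basophils. Of these genes, *Cd163l1* had a large difference, while *Areg* and *Jun* differed less and were listed for types of other lineages.

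The type was small. The table holds no number of cells, but the share of a gene in all cells must be the same whichever type lists it, and solving this for the 1045 genes listed for at least 2 types gave the size of each type. The gdT_TypeIII_CD163l1 cells made up 1.384% ± 0.0140 (least squares standard error) of all cells, gdT_TypeIII_ITGAE 1.283% ± 0.0139 and ILC3 1.698% ± 0.0213. These errors cover the rounding of the table and not the variation between animals. Among the 5 types named gdT, which summed to 22.04% of cells, gdT_TypeIII_CD163l1 accounted for 6.28%.

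The upstream sequences of 3 members are shown because they are the marker of the type, the gene with the largest difference and the cytokine gene that gives the IL-17 program its name. Each runs 5′ to 3′ from 250 to 51 bases before the RefSeq start (GRCm38.p6). Capitals mark AGGTCA, the core of the element bound by many nuclear receptors, and TGANTCA, the AP-1 site, on either strand.
Cd163l1 (chr7:140218017-140218216, + strand): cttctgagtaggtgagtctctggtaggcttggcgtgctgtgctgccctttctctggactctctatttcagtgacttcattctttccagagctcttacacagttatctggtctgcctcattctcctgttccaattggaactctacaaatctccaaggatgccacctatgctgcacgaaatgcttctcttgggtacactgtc
Actn2 (chr13:12340783-12340982, - strand): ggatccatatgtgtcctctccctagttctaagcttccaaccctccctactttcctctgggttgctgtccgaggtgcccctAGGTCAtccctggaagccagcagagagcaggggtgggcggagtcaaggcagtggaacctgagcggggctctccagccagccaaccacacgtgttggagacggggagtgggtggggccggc
Il17a (chr1:20730655-20730854, + strand): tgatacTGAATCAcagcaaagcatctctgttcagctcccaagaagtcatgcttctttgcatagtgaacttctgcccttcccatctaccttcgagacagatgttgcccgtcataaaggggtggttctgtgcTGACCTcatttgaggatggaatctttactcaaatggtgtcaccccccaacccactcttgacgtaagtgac
The *Actn2* window held AGGTCA 170 bases before the start. The *Il17a* window held the same core on the opposite strand 120 bases before the start and an AP-1 match 244 bases before it, and the motifs did not overlap. The *Cd163l1* window held neither word. Over the full 250 bases, AGGTCA occurred upstream of 28 of the 144 listed genes with a RefSeq promoter (19.44%), against 15.76% of 27025 genes genome-wide and 13.36% of the 1317 genes listed for any type. TGANTCA occurred upstream of 17 of the 144 (11.81%), against 7.82% and 7.14%. A match describes letters in a window and not a bound site.

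Most members differed modestly from other cells. Of the 191 genes, 183 had a higher share of cells above 0 inside the type and 8 a lower one, and the median difference was 12.2 points, with a range from −18.7 to 53.1. The median for gdT_TypeIII_ITGAE was 13.2 points and for ILC3 6.7 points. A difference of at least 20 points was seen for 50 genes and of at least 40 points for 8. The background was high, since 120 of the 191 genes were above 0 in at least 50% of the other cells. Listing was also broad: the members were listed for a median of 4 other types, 72 of them for at least 5, and only *Nefl*, the light neurofilament subunit, for no other type (44.9% inside, 30.2% outside).

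The 8 genes ahead of the rest were *Actn2*, *Cd163l1*, *Trdv4*, *Mmp25*, *Tcrg-C1*, *Ckb*, *Blk* and *Plxnd1*. *Actn2*, an alpha-actinin that crosslinks actin, was above 0 in 94.7% of the cells against 41.6% of others, and in 93.1% of gdT_TypeIII_ITGAE and 74.7% of ILC3 cells. *Mmp25*, a membrane-anchored matrix metalloproteinase, was above 0 in 81.5% against 35.9%, and its share was higher in gdT_TypeIII_ITGAE, at 90.1%. *Ckb*, the brain-type creatine kinase, was above 0 in 94.7% against 49.7%, close to ILC3 at 91.2% and above gdT_TypeIII_ITGAE at 70.2%. *Blk*, a Src-family kinase of B cells that IL-17-producing gamma delta T cells also use, was above 0 in 90.0% against 47.3%, and gdT_TypeIII_ITGAE, at 87.0%, was the only other type that listed it. *Plxnd1*, a semaphorin receptor, was above 0 in 69.0% against 28.5%.

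**Figure D1:**
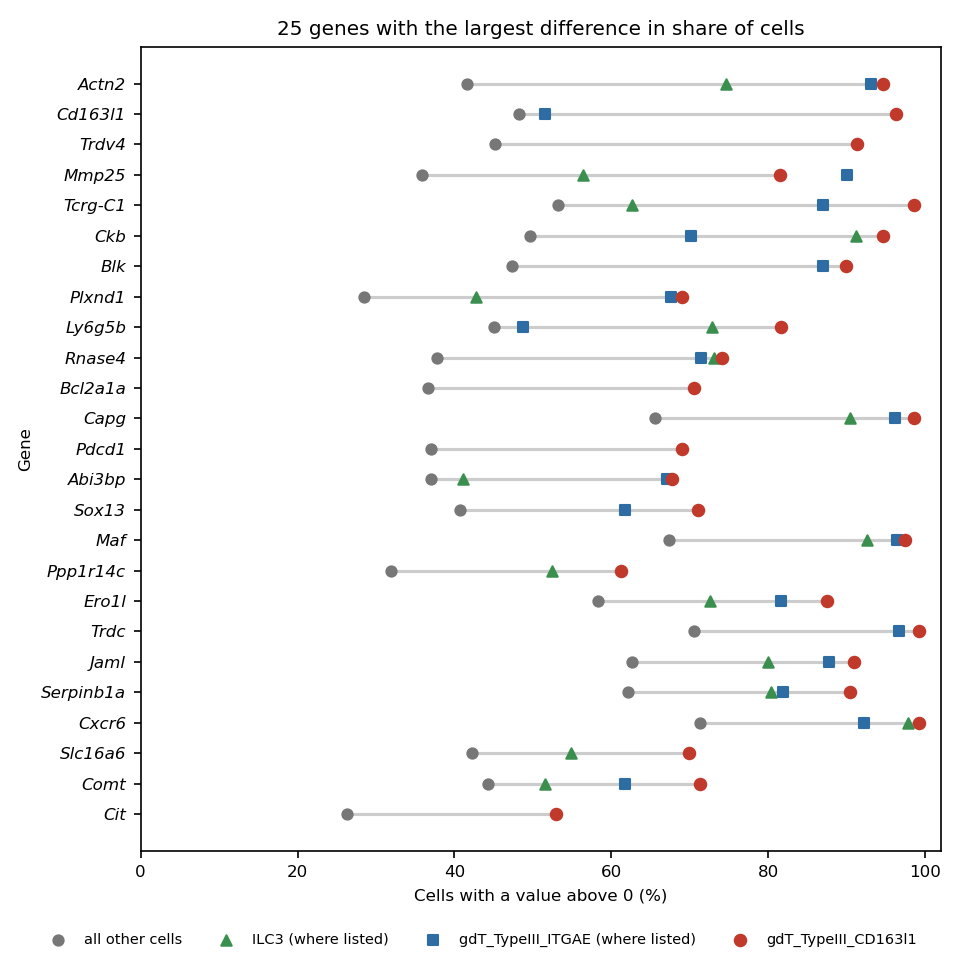
The horizontal axis gives the percentage of cells with a value above 0 and the vertical axis the 25 genes with the largest difference between the type and all other cells. Red circles stand for gdT_TypeIII_CD163l1, grey circles for all other cells, and blue squares and green triangles for gdT_TypeIII_ITGAE and ILC3 where they list the gene; for *Cd163l1* the square lies near the grey circle, at 51.5%, while for *Actn2* it lies near the red one, at 93.1%.

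Of the 25 genes with the largest differences, 19 were also listed for gdT_TypeIII_ITGAE, 17 for ILC3 and 15 for both. Over all 191 members these counts were 113, 100 and 68. Among all listed genes, 11.7% were listed for gdT_TypeIII_ITGAE and 9.11% for ILC3. The 4 listed for neither were *Trdv4*, *Bcl2a1a*, *Pdcd1* and *Cit*. *Pdcd1*, which encodes the inhibitory receptor PD-1 (chromosome 1, 94038305 to 94052553), was above 0 in 69.0% of the cells against 37.0% outside, and its only other listing was gdT_Naive, at 31.4%. *Bcl2a1a*, an anti-apoptotic BCL2 relative, was above 0 in 70.6% against 36.7%, and in 98.1% of macrophages. Its near-identical copies *Bcl2a1b* and *Bcl2a1d* stood at 90.0% and 82.6% inside and at 64.2% and 56.6% outside. Reads may be divided among the 3 copies, so their separate values are uncertain. *Cit*, a kinase of cell division, was above 0 in 53.0% against 26.3%, with a higher share, 76.5%, in endothelial cells.

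The genes of CD3 and of the gamma delta receptor are given next. Of the list of CD3 and gamma delta receptor genes, 7 of the 8 that any type listed were members, beside 11.4% of all listed genes. Of the same 8, 6 were listed for gdT_TypeIII_ITGAE and 4 for ILC3, namely *Tcrg-C1* and the 3 CD3 chains. The gamma variable gene *Trgv2*, which that list left out, was a member too, at 58.3% against 53.7% outside. It was listed for 5 other types, among them gdT_TypeIII_ITGAE at 67.9% and ILC3 at 50.7%. The constant delta gene *Trdc* was above 0 in 99.3% of the cells inside and 70.6% outside, with 96.7% in gdT_TypeIII_ITGAE, 96.4% in gdT_Naive and 77.0% in gdT_TypeI. The constant gamma gene *Tcrg-C1* (chromosome 13, 19214103 to 19217024) was above 0 in 98.6% against 53.2%. The variable gene *Trdv4* (chromosome 14, 54074905 to 54075515) was above 0 in 91.4% against 45.2%, and was otherwise listed only for ILC2 at 57.8% and ILC2_2 at 61.8%. *Tcrg-C2*, whose sequence resembles that of *Tcrg-C1*, showed hardly any difference in share, at 61.1% against 60.4%, and was above 0 in 75.3% of gdT_TypeIII_ITGAE cells. *Tcrg-C4* was listed only for gdT_Naive and gdT_TypeI.

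The CD3 chains were near their maximum. *Cd3e*, *Cd3g* and *Cd3d* were above 0 in 98.8%, 99.8% and 97.5% of the cells inside and in 83.3%, 85.3% and 83.3% of those outside, although the sort had used an antibody to CD3e to leave cells out. All 3 chains were listed for ILC3 too. *Cd3e* was above 0 in 91.4% inside ILC3 against 83.3% outside, *Cd3g* in 97.1% against 85.3%, and *Cd3d* in 81.9% against 83.6%. None of the 7 genes of the alpha beta T cell list (*Trac*, *Trbc1*, *Trbc2*, *Cd4*, *Cd8a*, *Cd8b1*, *Foxp3*) was a member. *Trbc2* was listed for gdT_TypeIII_ITGAE, and *Trac* and *Trbc2* for ILC3. Among all listed genes 11.4% were members, so a count of 0 on so short a list says little about gdT_TypeIII_CD163l1. A gene that is not listed may still have been present, because the table holds no value for it in this type.

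The type 17 program was the list with the most members. Of its 34 genes, 29 were listed for some type, and 25 of the 29 for gdT_TypeIII_CD163l1, against 11.4% of all listed genes. The same number, 25, were listed for gdT_TypeIII_ITGAE and 24 for ILC3, and 18 for all 3, so the number of listed genes hardly differed between these types. Nor was the list confined to them. *Maf* was also listed for ILC1_ILC3 at 94.0% and ILC2 at 82.6%, and *Cxcr6* at 95.6% and 89.1%, whereas *Blk* and *Il17a* were listed for neither. The median difference of the 25 was 24.7 points, beside 12.2 over all 191 members. The list names genes known from these cells, includes *Cd163l1* and was chosen with earlier results of these data known. Its count and its median difference therefore describe the type and are no independent support of its label.

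Among the transcription factors of that program, *Maf* was above 0 in 97.5% of the cells inside against 67.4% outside, and *Sox13* in 71.1% against 40.7%. *Sox13* was listed for gdT_TypeIII_ITGAE at 61.7% and not for ILC3, but also for endothelial cells at 87.6%. *Zbtb16*, which encodes PLZF of innate-like lymphocytes, was above 0 in 66.0% against 48.9% and reached 74.7% in gdT_TypeIII_ITGAE. *Rora* was above 0 in 91.7% against 81.1%. *Ahr*, which encodes the aryl hydrocarbon receptor, was listed for other types and not here.

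Among cytokines, *Il17a* (chromosome 1, 20730905 to 20734496) was above 0 in 59.0% of the cells against 41.8% of others, and in 69.6% of gdT_TypeIII_ITGAE cells, the only other type that listed it. *Il17f* was listed for gdT_TypeIII_ITGAE alone, at 67.6% against 34.7% outside. *Il22* was listed for no type. *Tnf* was above 0 in 78.5% of gdT_TypeIII_CD163l1 cells, 57.1% of gdT_TypeIII_ITGAE cells and 58.1% of ILC3s, against 54.1% outside. Thus *Il17a* had the higher share in gdT_TypeIII_ITGAE and *Tnf* in gdT_TypeIII_CD163l1.

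Among receptors of the program, *Il1r1*, the IL-1 receptor, was above 0 in 63.2% against 42.3% and was listed for ILC3 at 48.4% but not for gdT_TypeIII_ITGAE. *Il18r1* was above 0 in 95.8% against 73.8%. The chemokine receptor gene *Cxcr6*, a guide to liver and other tissues, was above 0 in 99.3% against 71.3%, with 92.3% in gdT_TypeIII_ITGAE and 97.9% in ILC3. *Ccr6*, a chemokine receptor of many IL-17-producing cells, was not listed here, whereas gdT_TypeIII_ITGAE had it in 84.2% of cells, ILC1_ILC3 in 82.5% and ILC3 in 53.1%. *Il23r* and *Il7r* were listed for no type.

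The other genes of the list encode membrane, metabolic and structural proteins. *Aqp3*, a water and glycerol channel, was above 0 in 72.5% against 46.0%. *Igf1r*, the IGF-1 receptor, was above 0 in 78.5% against 53.6%, below gdT_TypeIII_ITGAE at 87.0%. *Ltb4r1*, the leukotriene B4 receptor, was above 0 in 88.7% against 65.3%. *Capg*, *Serpinb1a* and *Jaml*, which encode an actin-capping protein, a protease inhibitor and an adhesion molecule, were above 0 in 98.6%, 90.5% and 91.0% inside. AGGTCA was found upstream of 6 of the 20 type 17 members with a promoter (*Actn2*, *Capg*, *Igf1r*, *Il17a*, *Jaml* and *S100a4*). TGANTCA was found upstream of *Il17a* alone. For comparison, AGGTCA occurred upstream of 15.76% of genes genome-wide and 13.36% of the genes listed for any type. TGANTCA occurred upstream of 7.82% and 7.14% of them. A set of 20 genes is too small to compare with these shares, and the difference was not tested.

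**Figure D2:**
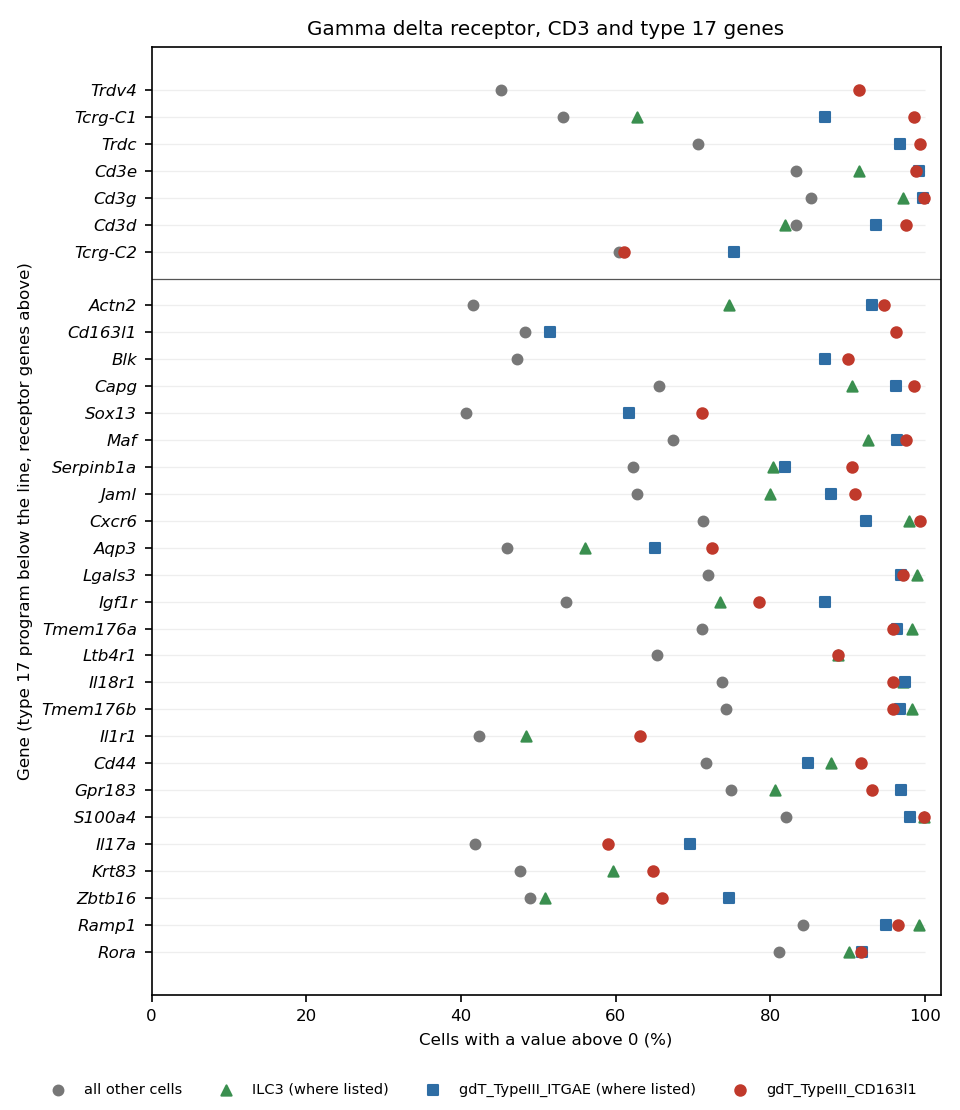
The horizontal axis gives the percentage of cells above 0, for the 7 members of the receptor and CD3 list above the line and the 25 type 17 genes below it. Colors are as in the plot of the leading genes. In *Igf1r*, *Il17a* and *Zbtb16* the blue square of gdT_TypeIII_ITGAE lies to the right of the red circle, at 87.0%, 69.6% and 74.7%.

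The comparison with gdT_TypeIII_ITGAE asked how the types that share the type III name differ. They shared 113 genes, 59.2% of the list of gdT_TypeIII_CD163l1 and 57.4% of the other. Both lists were drawn against nearly the same other cells, so the share of genes in common is a description. The share of cells was higher in gdT_TypeIII_CD163l1 for 51 of the 113 genes, higher in gdT_TypeIII_ITGAE for 61 and equal for 1, with a median difference of −0.4 points. The genes that were higher in gdT_TypeIII_CD163l1 by the most were *Cd163l1* (44.8 points), *Ly6g5b* (33.0 points), *Ckb* (24.5 points), *Tnf* (21.4 points) and *Serpinb6a* (13.0 points). *Ly6g5b*, a member of the LY6 family, was above 0 in 81.7% of the cells, in 48.7% of gdT_TypeIII_ITGAE and in 72.8% of ILC3.

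In the other direction, *Itgae*, the integrin chain CD103 that names the other type (chromosome 11, 73090583 to 73147446), was above 0 in 39.6% of gdT_TypeIII_CD163l1 cells and 76.0% of gdT_TypeIII_ITGAE cells, against 37.4% of the cells outside gdT_TypeIII_CD163l1. The other 4 were *Syne2*, a nuclear envelope protein, at 53.5% against 78.6%, *Fxyd7*, a regulator of the sodium pump, at 36.6% against 53.3%, *Runx2*, a runt transcription factor, at 56.9% against 72.4%, and *Avpi1* at 65.7% against 80.9%. The authors named the types from cluster markers, so the place of *Cd163l1* and *Itgae* at the ends of this comparison is no check of the names.

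With ILC3, 100 genes were shared, 52.4% of the list of gdT_TypeIII_CD163l1 and 65.4% of the ILC3 list. For 79 of them the share of cells was higher in gdT_TypeIII_CD163l1, for 18 in ILC3 and for 3 it was equal, with a median difference of 4.0 points. The largest differences were in *Tcrg-C1* (35.9 points), *Abi3bp* (26.7 points), *Plxnd1* (26.3 points), *Mmp25* (25.1 points) and *Tnf* (20.4 points). ILC3 was higher in *Icos*, a costimulatory receptor, at 89.9% against 75.7%, in *Hk2*, a hexokinase, at 67.2% against 54.9%, and in the potassium channel gene *Kcnc1* at 68.0% against 56.7%. *Prr29* and *Lmna*, the gene of the nuclear lamins A and C, followed at differences of −5.1 and −4.6 points. Over the 68 genes listed for all 3 types, the highest share lay in gdT_TypeIII_CD163l1 for 39, in gdT_TypeIII_ITGAE for 21 and in ILC3 for 8.

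**Figure D3:**
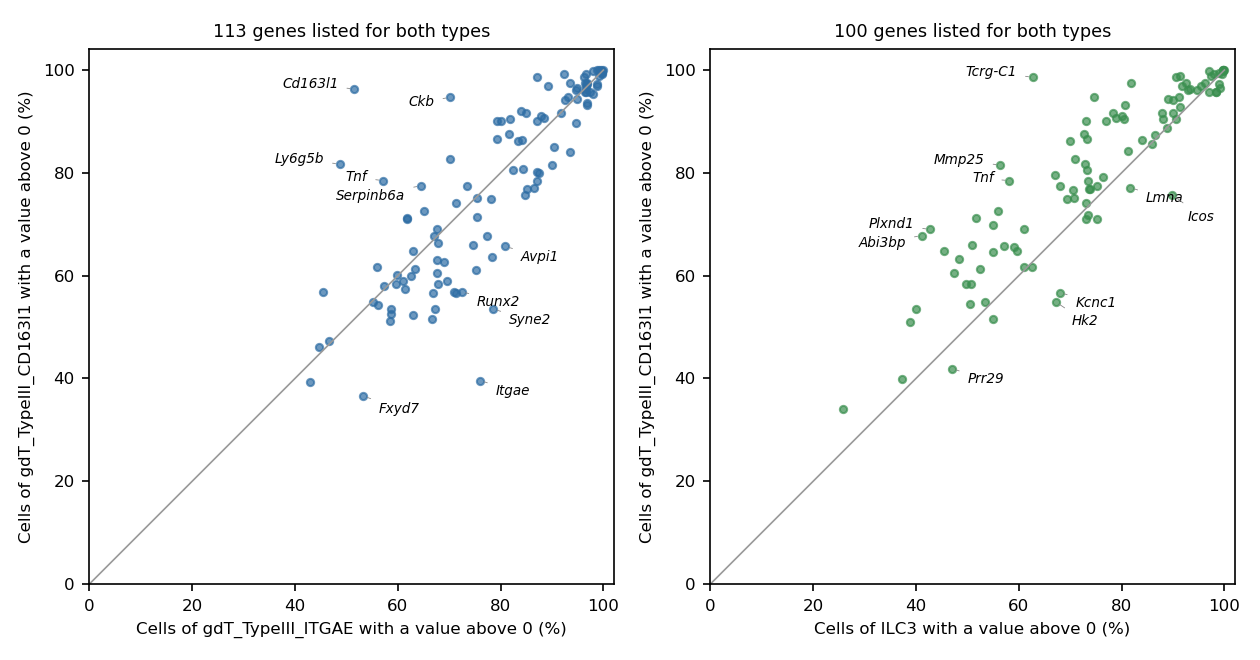
Each point is a gene listed for gdT_TypeIII_CD163l1 and for gdT_TypeIII_ITGAE (left, 113 genes) or ILC3 (right, 100 genes), placed by the percentage of cells with a value above 0 in each type, with equality drawn as a line. On the right most points, 79 of 100, lie above the line, while on the left 51 lie above it and 61 below, with *Cd163l1* and *Itgae* farthest from it.

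Among the AP-1 and immediate-early genes, which are induced quickly by stimulation and by tissue dissociation, the number of listed genes was higher for gdT_TypeIII_ITGAE. Of the 6 AP-1 genes listed for any type, *Jun* was the 1 member, while 3 were listed for gdT_TypeIII_ITGAE, including *Fos* at 96.9% and *Fosb* at 93.1%, and none for ILC3. Of 34 other immediate-early and stress genes, 8 were members (23.5%, beside 11.4% of all listed genes), 16 were listed for gdT_TypeIII_ITGAE and 1 for ILC3. With a difference of at least 10 points required, 1 of the 8 was left. Members were *Zfp36*, an mRNA decay factor, at 84.0% against 72.4%, *Myadm* at 54.2% against 48.7%, *Zfp36l1* at 97.2% against 92.8%, *Gadd45b* at 71.1% against 68.6%, *Btg2* at 96.8% against 94.5%, *Rgs1* at 85.0% against 84.1%, *Nfkbia* at 93.5% against 93.4%, and *Tnfaip3*, which had the lower share inside, at 89.6% against 92.6%. *Dusp1*, *Nr4a1* and *Hspa1a* were listed for gdT_TypeIII_ITGAE and not here. The part of cell handling in these values was not tested.

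Growth factor, cytokine receptor and trafficking lists gave between 23.5% and 40.0% of their listed genes, beside 11.4% of all listed genes, on short lists. Of 5 EGF family and growth factor genes listed for any type, *Areg* and *Hbegf* were members, the latter at 39.8% against 38.4%. *Il2ra*, the high-affinity chain of the IL-2 receptor, was above 0 in 86.6% against 61.9%, with *Il18r1* and *Il1r1* the other members among 10 cytokine receptor genes. Of 17 chemokine receptor and tissue exit genes, 4 were members, 8 were listed for gdT_TypeIII_ITGAE and 6 for ILC3. *Ccr2*, the receptor for CCL2, was above 0 in 96.8% against 72.7%, *Cd69*, a brake on tissue exit, in 94.4% against 86.1%, and *Cxcr3* in 71.8% against 66.0%. *Itgb1*, the integrin beta 1 chain, was above 0 in 76.9% against 69.5%.

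The lists of other lymphocyte programs gave few members, with shares of 8.33% or less in the type 1, type 2, B cell, interferon and proliferation lists, near or below the 11.4% of all listed genes, so these counts say little about the type. Type 2 genes gave 1 member of 14, *Areg*, and *Il1rl1*, which encodes the ST2 chain used in the sort, and *Gata3* were listed for ILC2 and gdT_TypeII and not for gdT_TypeIII_CD163l1. Type 1 and cytotoxic genes gave 2 of 24, the receptor gene *Klrk1* at 79.9% against 70.9%, and *Cxcr3*. Interferon response genes gave 0 of 13 and proliferation genes 0 of 16. Of the ILC3 and LTi list, 4 of 13 were members (*Cxcr6*, *Il1r1*, *Gpr183* and *Lta*), as many as for ILC3 itself. Markers of macrophages, basophils and endothelium gave 0 of 6, 0 of 9 and 0 of 6, lung epithelium 0 of 1, and no hepatocyte marker was listed for any type. B cell genes gave 1 of 12, *Cd79b* at 46.1% against 28.9%.

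**Figure D4:**
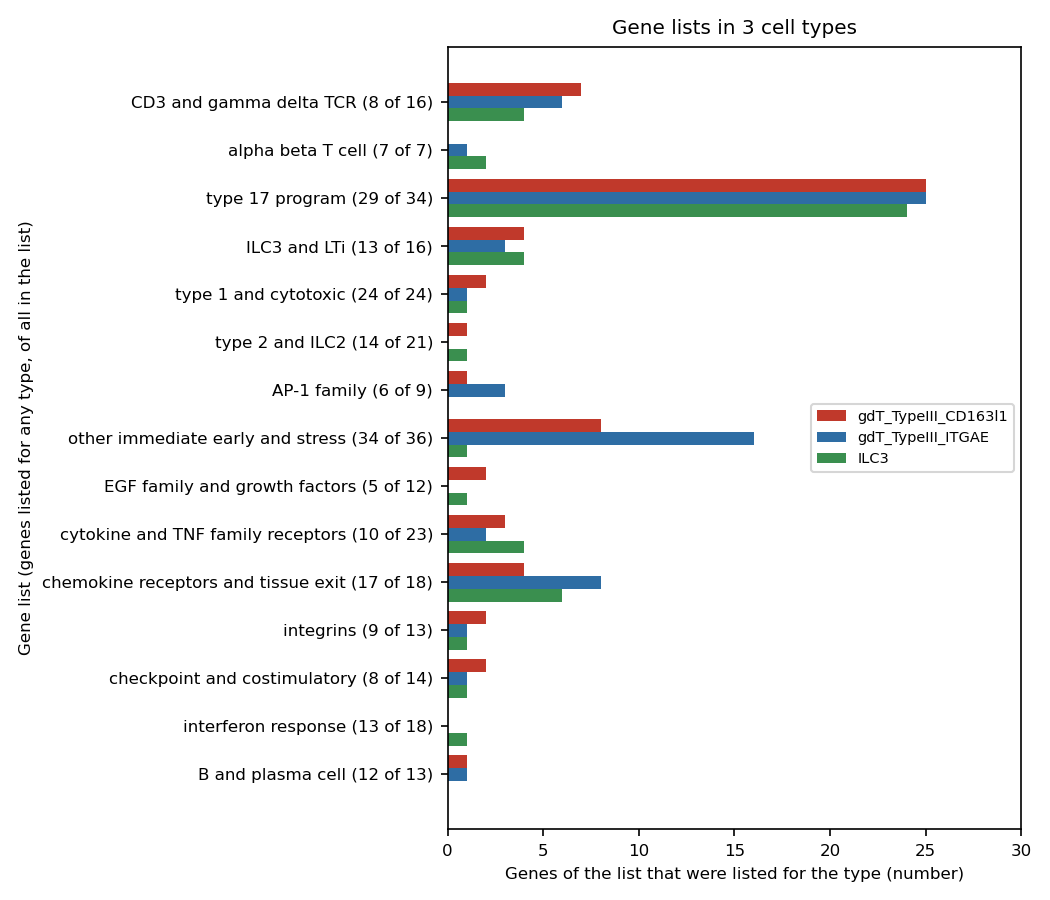
Bars on the horizontal axis give, for each gene list on the vertical axis, the number of its genes listed for gdT_TypeIII_CD163l1 (red), gdT_TypeIII_ITGAE (blue) and ILC3 (green), with the genes listed for any type and the length of the list in parentheses. The type 17 list has bars of 25, 25 and 24 genes, and the list of other immediate-early and stress genes bars of 8, 16 and 1.

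At the lower end, 8 members had a smaller share of cells above 0 inside the type than outside, although their average was higher inside. They were *Rasgef1b* (39.4% against 58.1%), *Stmn2* (16.4% against 31.9%), *Map1b* (30.1% against 38.8%), *Gcnt2* (50.9% against 57.1%), *Camk2n1* (56.5% against 61.8%), *Ehd3* (56.9% against 61.3%), *Tnfaip3* and *Hopx* (60.0% against 61.1%). *Stmn2* and *Map1b* encode regulators of microtubules known from neurons. At the upper end, *S100a6*, *S100a10*, *S100a11* and *Lgals1* were above 0 in every cell of the type at the precision of the table. Their shares outside were 85.8%, 97.3%, 93.1% and 87.8%, in that order. In gdT_TypeIII_ITGAE and ILC3 each of them was at 98.7% or more, so this was not particular to gdT_TypeIII_CD163l1.

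Beyond these neighbors, ILC1_ILC3 shared the most genes. ILC1_ILC3 shared 86 genes, 45.0% of the list of gdT_TypeIII_CD163l1 and 38.2% of its own, and had the higher share for 60 of them against 25. Of the other gamma delta types, gdT_TypeI shared 19 genes (9.95% and 13.1%), gdT_Naive 14 (7.33% and 9.40%) and gdT_TypeII 4 of its 28 (2.09% and 14.3%), so their lists held members at about the 11.4% found among all listed genes. Basophils shared 47 of their 275 (24.6% and 17.1%) and macrophages 45 of their 291 (23.6% and 15.5%), on longer lists and beside the same 11.4%.

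**Figure D5:**
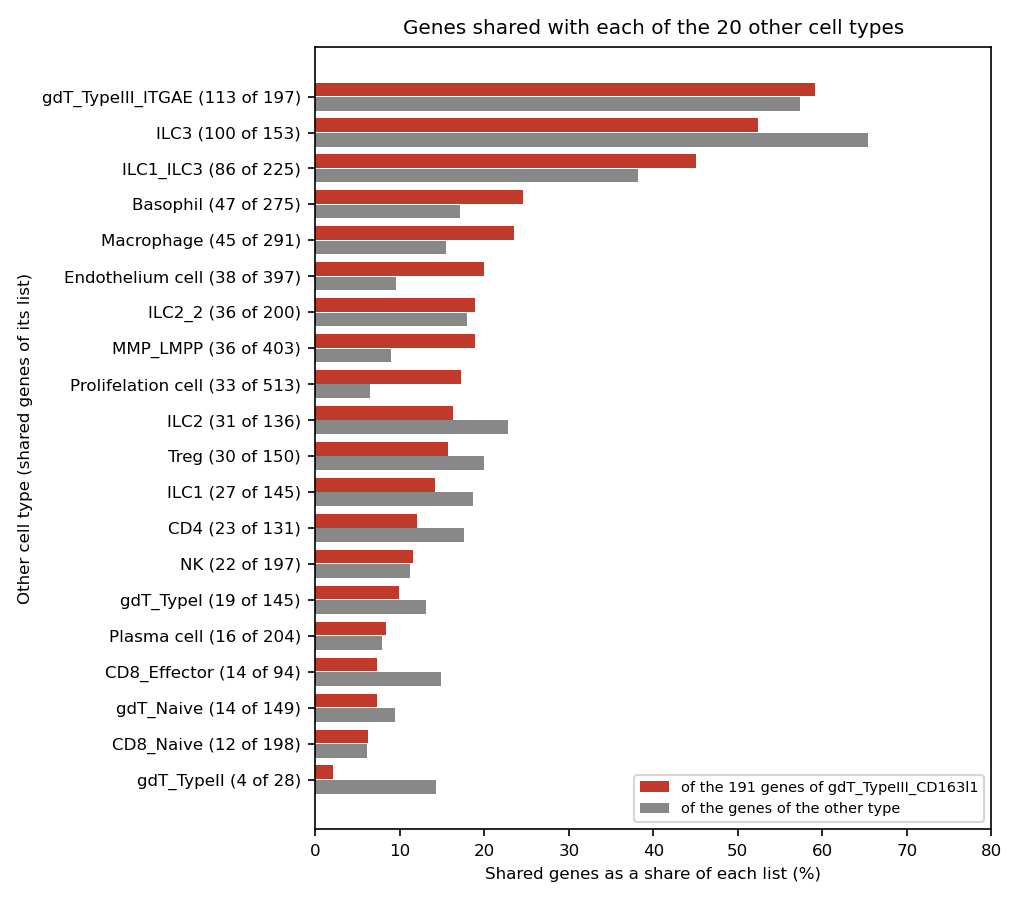
Red bars give the genes shared with each of the 20 other types as a percentage of the 191 genes of gdT_TypeIII_CD163l1, and grey bars the same genes as a percentage of the other type's list. The 3 longest red bars are gdT_TypeIII_ITGAE (59.2%), ILC3 (52.4%) and ILC1_ILC3 (45.0%), and the shortest is gdT_TypeII, with 4 genes.

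A separate deposited table compared 10 subclusters of cells kept as ILC2s. Of the 191 genes listed for gdT_TypeIII_CD163l1, 130 were listed for at least 1 of those subclusters and 61 for none. Subcluster 6 listed 37 of them, which is 19.4% of the 191, beside 4.47% of all genes listed for any type. Subcluster 1 listed 38, or 19.9% beside 6.85%, and subcluster 4, with a far longer list, 36, or 18.8% beside 26.9%. Read the other way, members made up 49.3% of the 75 genes of subcluster 6 found in the cell type table, 33.0% of the 115 of subcluster 1 and 7.98% of the 451 of subcluster 4, beside 11.4% of all listed genes. Among all ILC2s of that table, *Trdc* was above 0 in 7.72%, *Actn2* in 14.4%, *Tcrg-C1* in 26.0%, *Pdcd1* in 34.57% (listed for subclusters 1, 6, 7 and 8), *Maf* in 78.77% and *Cxcr6* in 88.45%. *Cd163l1*, *Blk*, *Sox13* and *Il17a* were listed for none of these subclusters. These cells were other cells, and the tables were made with different feature sets, so the values are given side by side only.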

How the data were processed

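RNA was profiled by droplet-based single-cell sequencing in 4 libraries, grouped by the labels as PBS liver, PBS lung, rIL-33 liver and rIL-33 lung. The authors aligned reads with Cell Ranger to mm10, excluded doublets and dead cells by flow cytometry and cells with few detected genes, scaled and log transformed the counts, clustered cells in Seurat and named the clusters from their markers. A computational doublet caller is not given in the sources used here. The deposited fraction of cells with a value above 0, inside a type and in all other cells, was used as percentages. Whether the table of 2000 features came from integrated values is not given in the sources used here. The deposited log2 fold changes and p-values of the authors hold their own comparisons and were read only to find the filters (smallest log2 fold change 0.25, largest p-value 0.0095) and the number of features. No value belonged to 1 library, so depth, replicate error and group comparisons could not be had, and no test was run.

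Type sizes were solved by least squares and checked on simulated data, with Python 3.11.15, pandas 2.3.3 and numpy 2.4.6. Gene positions came from GENCODE M21 and upstream sequences from RefSeq (GRCm38.p6), which matched 144 of the 191 genes by symbol. Named genes were *Cd163l1*, *Areg* and *Jun*, the 25 with the largest difference of shares, the 5 extremes each way among genes shared with either neighbor, genes listed for no other type, those with a lower share inside, and the genes of the lists. *Bcl2a1b*, *Bcl2a1d*, *Trgv2* and the genes above 0 in all cells were named after their values were seen. A gene withheld from the lists is not reported here. The members and lists were chosen with earlier results of these data known. Alternatives were a stricter definition of a listed gene, other fits of the sizes and an order by ratio.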

Additional observations from a re-analysis of the deposited data

How the results depend on the processing

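Listing was recomputed with a difference of at least 10 points, with a higher share inside, and with a share inside of at least 50%. At a difference of at least 10 points, the genes listed for the type fell to 107, those shared with gdT_TypeIII_ITGAE to 64, with ILC3 to 41 and with both to 32, by the construction of a stricter limit, while 7 genes were then listed for no other type. That last count was 3 with a higher share inside and 2 with a share inside of at least 50%, so *Nefl* stands alone only in the table as deposited. Of 63 list counts under these settings, 11 moved by over 1.5 times. With a difference of at least 10 points, other immediate-early and stress genes went from 8 to 1, chemokine receptor and tissue exit genes from 4 to 2, checkpoint genes from 2 to 1, type 1 genes, integrins and growth factors from 2 to 0 each, and type 2 genes from 1 to 0. With a share inside of at least 50%, growth factors went from 2 to 0, integrins from 2 to 1, and type 2 and B cell genes from 1 to 0. The size of the type lay between 1.38% and 1.396% in 4 other fits. An order by ratio kept 18 of the 25 leading genes. No paired analysis was possible because the deposited columns pool the libraries, of which every group had 1. Depth is unknown, so a gene that was not listed cannot be called absent.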

Other observations

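The genes of some families were listed together, as seen after the values were known. Of the genes listed for any type, all 3 Bcl2a1 copies, both Lgals genes, both Tmem176 genes and 4 of 6 S100a genes were members. Among all listed genes, 11.4% were members. The gdT_TypeIII_ITGAE and ILC3 lists each also held 4 S100a genes, both Lgals genes, both Tmem176 genes and 2 Bcl2a1 copies, so these families were not particular to gdT_TypeIII_CD163l1.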
